A study of Mus musculus with 6 samples.

Results

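The interferon-stimulated genes examined here are 41 mouse genes that interferons are known to switch on, chosen by name among the non-control probes of a 2-colour expression array. The p200 family of interferon-inducible genes was left out. Their names matched 60 of the 41174 probes, and 40 of the 41 genes passed the filter on dim signal and stood among the 19225 genes tested. The gene not tested was Oas1g, which was well above background on 1 of 6 arrays in the VIP-treated sample and on 0 in the untreated one. Resting CD4 T cells from the spleens of C57BL/6J mice were compared with and without vasoactive intestinal peptide (VIP), a neuropeptide whose receptors on lymphocytes raise cyclic AMP. Each sample pooled the spleens of 5 to 10 animals, males and females between 6 and 32 weeks old, and the CD4 cells were selected on antibody-coated magnetic beads. Each of the 6 arrays held 1 VIP-treated and 1 untreated sample, and the labels number them as biological replicates 1 to 6. VIP dose, treatment time and whether the pair on an array came from the same spleens are not given in the labels used here.

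Interferons are cytokines that cells release on meeting viruses and other threats. Type I interferons act through Ifnar1 and Ifnar2, the kinases Jak1 and Tyk2 and a complex that includes Stat2 and Irf9, which binds interferon-stimulated response elements in promoters. Interferon gamma acts through Ifngr1, Ifngr2, Jak1 and Jak2, and its target promoters hold gamma-activated sites. The genes turned on this way restrict viral entry, translation and replication, sense foreign nucleic acids, or feed back on the signal. T cells keep a low tonic expression of many of them without infection.

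Before any comparison, 2 of the arrays stood apart. On replicate 3 the female-specific transcript Xist had a log2 ratio of VIP over untreated of -6.12, and the Y-linked Ddx3y one of 2.04. Replicate 6 went the other way, with 2.03 for Xist and -3.96 for Ddx3y. On the other 4 arrays both stayed between -0.21 and 0.34, so the paired samples differed widely in sex-linked transcripts on replicates 3 and 6 only. Results are given with all 6 arrays and with the 4 matched ones, an alternative chosen after seeing the data. All 6 T cell markers, Cd4 among them, were tested and none passed the adjusted limit. At an unadjusted p under 0.05, 2 of the 6 were lower with VIP, Cd3g at -0.15 and Cd3d at -0.13, against 9.21% of all genes. Precision is limited by the 6 arrays: fitted log2 ratios had a median standard error of 0.069 for the interferon-stimulated genes and 0.048 for all genes.

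The promoters below show letters that some of these genes share upstream. RefSeq promoter sequences of 300 bases (250 before and 50 after the start, build GRCm38.p6) were matched for 30 of the 41 genes, giving 39 promoters. The core of the interferon-stimulated response element was searched as GAAA, any 2 bases and GAAA again, on both strands, with overlaps allowed. It was present in 19 of these promoters (48.7%), against 3.44% of 32851 promoters in the table. The gamma-activated site core, searched as TTCNNNGAA on both strands, was in 12 (30.8%) against 8.30%, and 6 genes held both. A match describes letters only and does not show that a factor binds there. The stretches are written 5′ to 3′ on the gene's strand with the response element cores in capitals, which read TTTC, 2 bases and TTTC where the core is on the opposite strand. They were selected among the promoters that hold a core, to show where the cores lie upstream of genes described below. Ifit2, Isg20, Oasl1 and Oasl2 are among the genes whose windows held no such core.
Isg15 (chr4:156200855-156200916, minus strand): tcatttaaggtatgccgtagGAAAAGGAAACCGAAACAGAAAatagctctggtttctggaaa
Ifit1 (chr19:34640765-34640833, plus strand): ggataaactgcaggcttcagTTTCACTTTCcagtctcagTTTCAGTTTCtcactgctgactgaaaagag
Ifit3 (chr19:34583353-34583436, plus strand): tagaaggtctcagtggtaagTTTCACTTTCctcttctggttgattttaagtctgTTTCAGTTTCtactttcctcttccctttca
Rsad2 (chr12:26456543-26456592, minus strand): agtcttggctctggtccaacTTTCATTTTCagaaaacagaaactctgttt
Oas1a (chr5:120907526-120907565, minus strand): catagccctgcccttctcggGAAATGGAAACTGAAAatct
Bst2 (chr8:71537567-71537622, minus strand): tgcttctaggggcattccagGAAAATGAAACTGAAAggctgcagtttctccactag
Gbp2 (chr3:142620584-142620633, plus strand): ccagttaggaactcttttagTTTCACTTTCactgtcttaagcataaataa
Igtp (chr11:58199502-58199551, plus strand): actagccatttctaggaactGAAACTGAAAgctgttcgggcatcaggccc
Isg15 carries 3 overlapping cores in a run, Ifit1, Ifit3, Oas1a and Bst2 carry 2, and Rsad2, Gbp2 and Igtp carry 1. The 17 tested genes with a core in their window had a median fitted log2 ratio of -0.079 with VIP, and the 12 tested genes whose window lacked these letters had one of -0.11. On replicate 3 the medians were -0.40 over 15 measured genes and -0.32 over 12. On the 4 arrays without replicates 3 and 6 the medians were -0.0089 with a core and -0.031 without, against -0.0060 for all genes. The direction was thus the same whether or not the window held the core, and the difference was not tested.

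With VIP, 1 of the 40 interferon-stimulated genes changed: Ifit2, which encodes a protein that binds viral RNA, fell by 0.21 on the log2 scale (1.16-fold). None rose. Among all genes tested 3.08% changed at the same limit, a Benjamini-Hochberg adjusted p under 0.05 from limma, 1.37% downward and 1.72% upward. At an unadjusted p under 0.05, 11 of the 40 were lower and 0 higher, against 9.21% and 7.5% of all genes. The fitted log2 ratio was below 0 for 37 of the 40, against 52.9% of all genes, with a median of -0.12 against -0.0047. Fitted values ran from -0.22 for Rsad2 to 0.11 for Gbp3, no fold exceeded 1.16, and the 95% interval of 29 genes included 0. The 3 genes fitted above 0 were Gbp3 (0.11), Ifitm3 (0.079, measured on 4 arrays) and Samhd1 (0.041). None of these 3 passed the test.

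Values were lowest on replicate 3. The median log2 ratio of the 40 genes was -0.013, -0.028, -0.41, -0.030, -0.11 and -0.043 on replicates 1 to 6, while the median of all genes stayed between -0.015 and 0.014. With the fitted dye effect removed, as in the fitted values, the medians were 0.059, -0.10, -0.36, -0.093, -0.0099 and -0.14. Replicate 3 was the lowest either way, and replicates 2, 4 and 6 were further below 0 after the removal. On replicate 3 as measured, 37 of 38 measured genes were below 0, against 47.1% of all genes, and the exception was the transcription factor Irf1 at 0.026. On replicates 1 to 6 in turn, 21 of 40, 23 of 40, 37 of 38, 23 of 40, 25 of 40 and 23 of 38 were below 0. The other 5 arrays thus had between 52.5% and 62.5% of the genes below 0, where all genes had 48.5%, 52.3%, 54%, 48.7% and 52.6% on replicates 1, 2, 4, 5 and 6. Of the 37 genes measured on all 6 arrays, 24 had their lowest value on replicate 3, against 18.9% of all genes, and 9 on replicate 6. On replicate 3, 16 of 38 lay under -0.5, against 3.26% of all genes. On replicate 6 there were 5 such genes of 38, against 2.57%, and on replicate 2 there was 1.

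**Figure D1:**
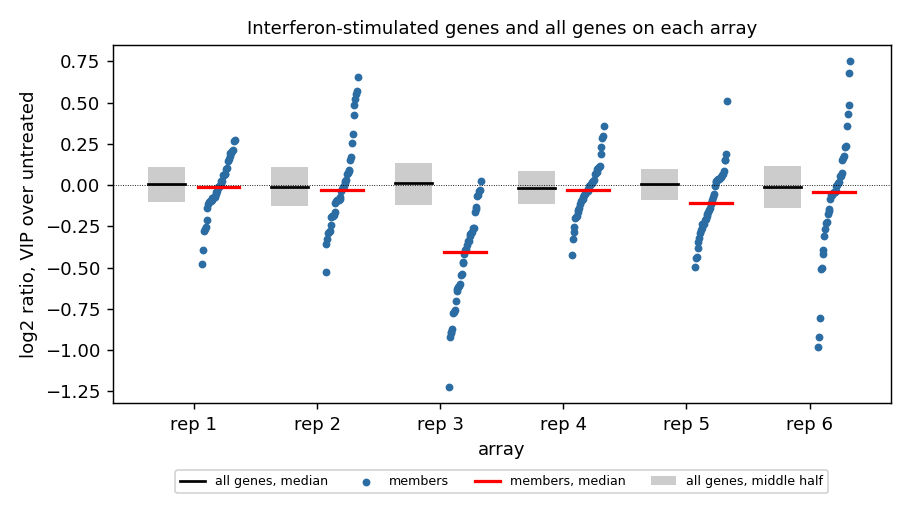
Log2 ratio of VIP-treated over untreated on each array: blue points are interferon-stimulated genes in ascending order, red lines their medians, grey bars the middle 50% of all genes tested and black lines the median of all genes. On replicate 3 the points centre on -0.41 and all but 1 lie below 0, while on the other arrays their medians lie between -0.11 and -0.013.

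Without replicate 3 the median of the fitted values was -0.038, and 29 of 40 were below 0. With only the 4 matched arrays, 0 of the 40 genes changed, against 1.93% of all genes in either direction and 0.736% lower, and 4 had an unadjusted p under 0.05, against 13.2%. There 28 of the 40 fitted values were below 0, against 53.3% of all genes, and their median was -0.026 against -0.0060. Marker genes of other cell types, given as medians of 9 short lists, differed within pairs on matched and unmatched arrays alike. They ran from -0.22 for macrophage and monocyte genes to 0.19 for the CD8 T genes on replicate 3, and from -0.47 for erythroid genes to 0.46 for neutrophil genes on replicate 6. On the matched arrays they ran from -0.18 to 0.056, -0.47 to 0.17, -0.16 to 0.19 and -0.098 to 0.048 on replicates 1, 2, 4 and 5. Some of these medians rest on few genes that disagreed. On replicate 3 Cd8a was at 0.41 and Cd8b1 at -0.024. On replicate 6 the neutrophil genes S100a9, S100a8, Ngp and Ltf were at 1.56, 0.87, 0.060 and -0.21. The -0.47 on replicate 2 is the value of 1 erythroid gene, Alas2. The part of other cell types and of the sex-linked mismatch in the lower values was not tested. In pooled cells fewer expressing cells and less RNA per cell cannot be told apart. The arrays also lay on 3 slides of 2 arrays, and the median was -0.040 on the slide with replicates 1 and 2, -0.25 on that with 3 and 4 and -0.068 on that with 5 and 6.

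**Figure D2:**
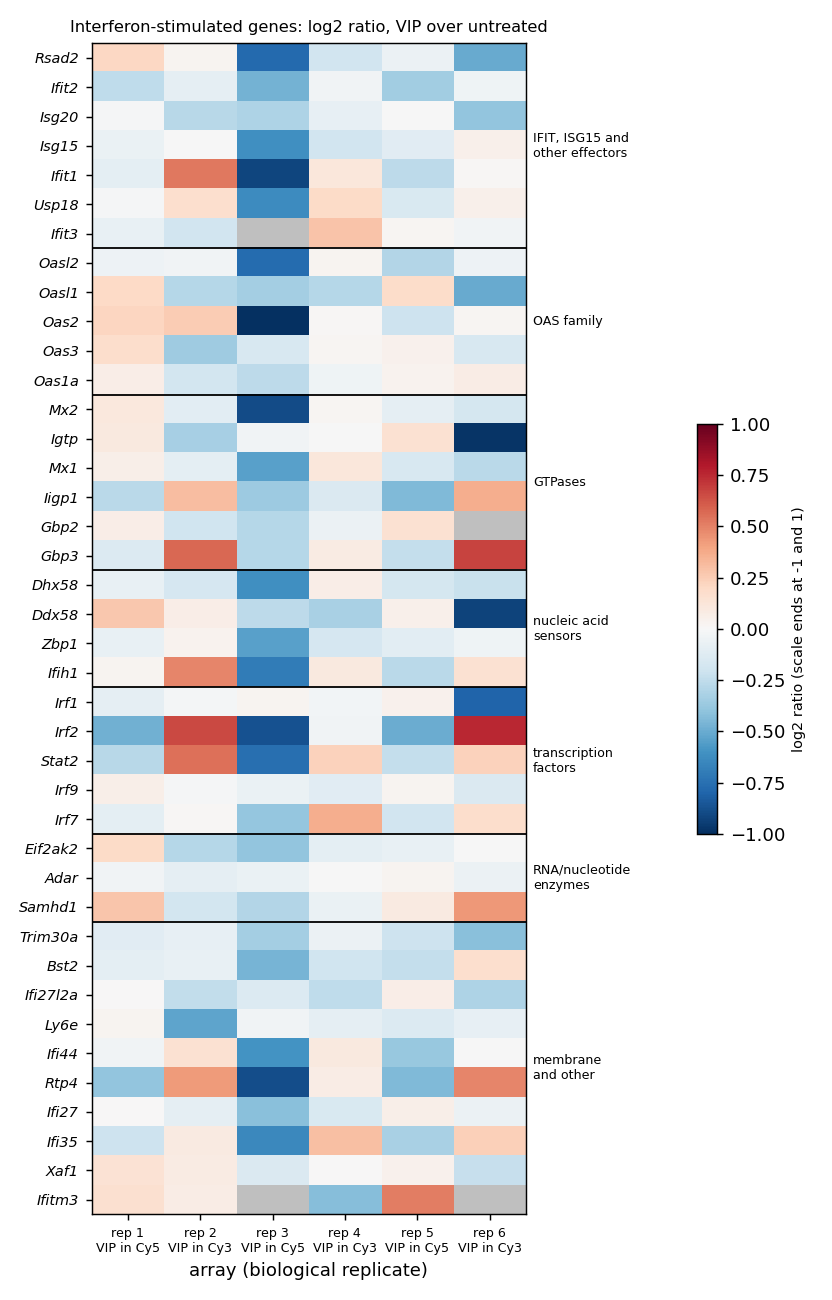
Log2 ratio of VIP-treated over untreated for the 40 tested genes (rows, by role) on the 6 arrays (columns, with the dye of the VIP-treated sample), on a colour scale that ends at -1 and 1, with grey for values not measured. The column of replicate 3 is blue in 37 of 38 genes. Stat2, Rtp4, Gbp3, Ifit1, Usp18, Ifi35 and Irf7 alternate in sign with the dye.

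The effector genes encode proteins that block viral RNA and its translation, modify other proteins or end the response. All 7 were tested and 1 fell, against 1.37% of all genes. The median fitted value of the 7 was -0.16 with 6 arrays and -0.0029 with the matched 4. The Ifit2 probe (mm9 chr19:34650244-34650303, plus strand) had log2 ratios of -0.26, -0.092, -0.47, -0.034, -0.35 and -0.043 on replicates 1 to 6. All were below 0, with the largest differences on the 3 arrays that carried VIP in Cy5. The fitted value was -0.21 ± 0.043 (SE, n = 6, adjusted p = 0.0276), and slide means were -0.17, -0.25 and -0.20. On the 4 matched arrays it was -0.18 with an adjusted p of 0.122, and a second Ifit2 probe gave -0.16 with an adjusted p of 0.407 over all probes. The call was lost on leaving out any 1 array, with adjusted p-values between 0.0521 and 0.102, while the fitted value stayed between -0.23 and -0.18.

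Isg20, an exonuclease that degrades single-stranded RNA, had log2 ratios of -0.014, -0.28, -0.31, -0.085, -0.0063 and -0.40 on replicates 1 to 6. They were below 0 on each array but close to it on replicates 1 and 5, with a fitted value of -0.18 ± 0.056 (SE, n = 6, adjusted p = 0.124). Isg15, the ubiquitin-like modifier whose promoter holds the 3 cores above, had -0.069, -0.0075, -0.61, -0.19, -0.11 and 0.053. Replicate 3 was far below the rest, and the fitted value was -0.16 ± 0.069 (SE, n = 6, adjusted p = 0.288). For Ifit3, a partner of the other Ifit proteins, the ratios on the 5 arrays that measured it were -0.074, -0.19, 0.28, 0.022 and -0.034 on replicates 1, 2, 4, 5 and 6. They fell on both sides of 0 and the fitted value was -0.0032 ± 0.068 (SE, n = 5). Rsad2 (viperin), named for having the lowest fitted value, had 0.21, 0.027, -0.78, -0.19, -0.056 and -0.51. Its fitted value of -0.22 ± 0.11 (SE, n = 6) missed the limit with an adjusted p of 0.363, and was -0.0029 on the matched arrays. These values are of the brightest Rsad2 probe. A second Rsad2 probe had -0.35, -0.20, -0.90, -0.015, -0.38 and -0.019, with a fitted value of -0.31 (adjusted p = 0.0406 over all probes). A further Rsad2 probe had -0.31, 0.048, -1.14, 0.087, -0.23 and -0.046, with a fitted value of -0.27 (adjusted p = 0.203 over all probes). Ifit1 and Usp18, the protease that takes Isg15 off its targets, had fitted values of -0.11 and -0.063.

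**Figure D3:**
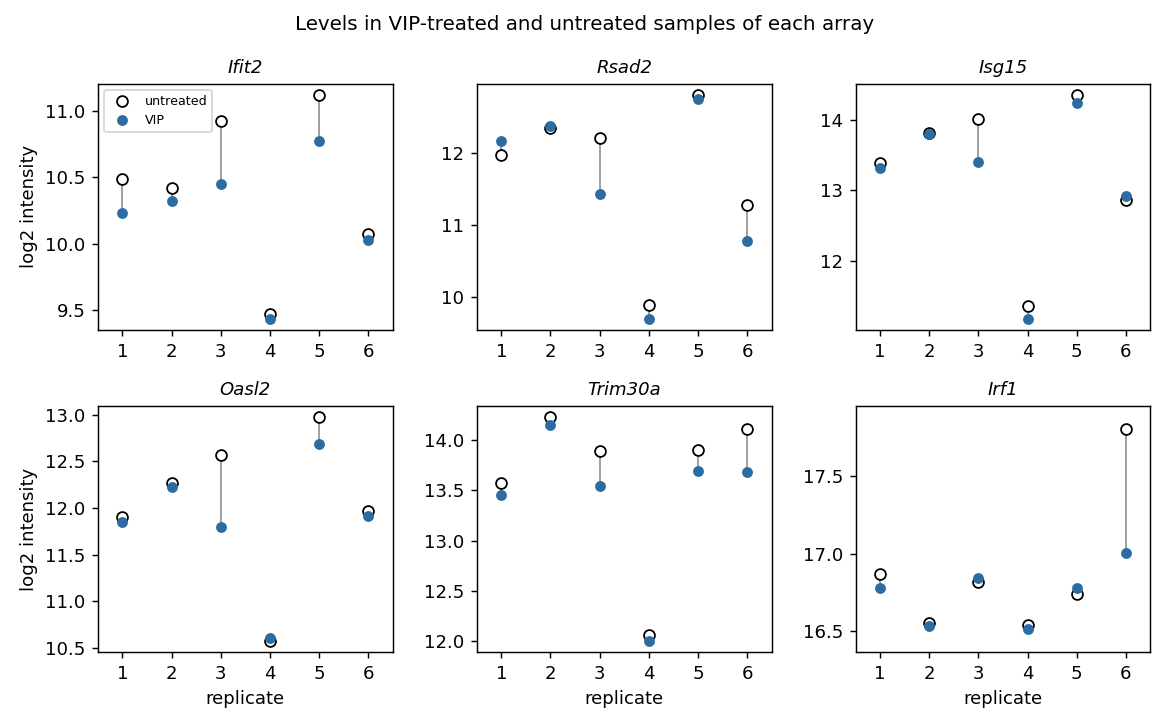
Normalised log2 intensity of 6 genes in the VIP-treated (filled) and untreated (open) sample of each replicate, joined by a line. The Ifit2 levels of the VIP-treated samples lie below those of their untreated partners on each array, by between 0.034 and 0.47, and in all 6 panels both samples are lowest on replicate 4, narrowly so for Irf1.

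The oligoadenylate synthetase (OAS) family makes 2-5A, the second messenger that activates RNase L, while Oasl1 lacks that activity. Of 6 genes, 5 were tested and none changed, with 2 at an unadjusted p under 0.05, both lower, against 9.21% of all genes. The median of the 5 was -0.16, and -0.030 on the matched arrays. Oasl2 had log2 ratios of -0.051, -0.034, -0.77, 0.030, -0.29 and -0.050 on replicates 1 to 6. It was lowest on replicate 3, also after the fitted dye effect was removed (-0.59 there and between -0.23 and 0.13 on the other arrays), and the fitted value was -0.19 ± 0.076 (SE, n = 6, adjusted p = 0.225). Oasl1 had 0.20, -0.28, -0.34, -0.28, 0.19 and -0.50, below 0 on 4 of the arrays, with a fitted value of -0.17 ± 0.070 (SE, n = 6, adjusted p = 0.245). Oas2 held the lowest single value of the whole set, -1.22 on replicate 3, yet was at 0.21 and 0.26 on replicates 1 and 2, with a fitted value of -0.16. Oas3 and Oas1a had fitted values of -0.072 and -0.052. Probes for Oas1a, Oas2 and Oas3 lie together on chromosome 5 (mm9), and those for Oasl1 and Oasl2 lie together elsewhere on it.

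The GTPases include the Mx proteins, which block viral replication complexes, and the guanylate-binding and immunity-related GTPases, which attack vacuoles of intracellular pathogens. All 6 were tested, 0 changed in limma and 0 had an unadjusted p under 0.05, against 16.7% of all genes. The median of the 6 was -0.12, and -0.020 on the matched arrays. Mx1 had log2 ratios of 0.061, -0.096, -0.54, 0.11, -0.16 and -0.27 on replicates 1 to 6. These values lay on both sides of 0, with a fitted value of -0.15 ± 0.074 (SE, n = 6, adjusted p = 0.357). Igtp had 0.098, -0.33, -0.036, -0.0028, 0.15 and -0.98. Here replicate 6 alone was far below the rest, and the fitted value was -0.18 ± 0.098 (SE, n = 6, adjusted p = 0.395). The median of the 363 genes with a mean log2 intensity above 16, a range that holds Igtp, was 0.20, -0.36, 0.26, -0.24, 0.29 and -0.73 on replicates 1 to 6, below 0 on each array with VIP in Cy3 and lowest on replicate 6. The part of this pattern in the Igtp values was not tested. Mx2 was at -0.90 on replicate 3 and had a fitted value of -0.19, and Iigp1 and Gbp2 had -0.090 and -0.074.

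The nucleic acid sensors detect viral RNA (Ddx58, also called RIG-I, with Ifih1 and Dhx58) or left-handed nucleic acids (Zbp1). All 4 were tested and none changed, with 2 at an unadjusted p under 0.05, both lower, against 9.21% of all genes. The median of the 4 was -0.17, and -0.032 on the matched arrays. Dhx58 had log2 ratios of -0.078, -0.17, -0.62, 0.067, -0.17 and -0.22 on replicates 1 to 6. It was below 0 on 5 of the arrays, with a fitted value of -0.20 ± 0.069 (SE, n = 6, adjusted p = 0.171). Zbp1 had -0.075, 0.033, -0.54, -0.16, -0.11 and -0.043, again lowest by far on replicate 3, with a fitted value of -0.15 ± 0.063 (SE, n = 6, adjusted p = 0.256). The brightest Ddx58 probe differed from these in being lowest on replicate 6, at -0.92, with a fitted value of -0.19. The other kept Ddx58 probes were lowest on replicate 3, at -0.34, -0.32 and -0.35, with fitted values of -0.068, -0.034 and -0.081. Ifih1 had a fitted value of -0.035.

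The transcription factors carry the interferon signal to promoters (Stat2 and Irf9), amplify it (Irf7) or act in opposition at the same elements (Irf1 and Irf2). All 5 were tested, 0 changed in limma and 0 had an unadjusted p under 0.05, against 16.7% of all genes. The median of the 5 was -0.043, and -0.0097 on the matched arrays. Irf1 had log2 ratios of -0.092, -0.023, 0.026, -0.025, 0.039 and -0.80 on replicates 1 to 6. It was close to 0 on 5 arrays and low on replicate 6, and the fitted value was -0.15 ± 0.089 (SE, n = 6, adjusted p = 0.464). The mean log2 intensity of Irf1 was 16.7, within the range of the bright genes above. Their median was -0.36, -0.24 and -0.73 on replicates 2, 4 and 6. The part of this pattern in the Irf1 values was not tested. These values are of the brightest Irf1 probe. A second kept Irf1 probe, of mean log2 intensity 11.3, was at -0.33 on replicate 2 and -0.23 on replicate 6. Its fitted value was -0.063. Irf9 had 0.062, -0.011, -0.064, -0.12, 0.026 and -0.14, all near 0, with a fitted value of -0.041 ± 0.041 (SE, n = 6, adjusted p = 0.693). Irf2 had -0.48, 0.66, -0.87, -0.035, -0.49 and 0.75, below 0 on every array with VIP in Cy5 and well above 0 on 2 of the 3 others. The fit gives this probe a dye term of -0.54, and its fitted value was -0.079. Stat2 had a dye term of -0.38 and a fitted value of -0.043, and Irf7 had a fitted value of -0.022.

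Among the enzymes that act on RNA or nucleotides, all 3 were tested and 0 changed in limma. At an unadjusted p under 0.05 there were 0, against 16.7% of all genes. The median of the 3 was -0.037, and -0.025 on the matched arrays. Eif2ak2 (PKR), the kinase that halts translation on sensing double-stranded RNA, had log2 ratios of 0.19, -0.29, -0.40, -0.096, -0.074 and -0.0054 on replicates 1 to 6. It spread on both sides of 0, with a fitted value of -0.11 ± 0.070 (SE, n = 6, adjusted p = 0.476). Adar, which edits adenosine in double-stranded RNA, had -0.039, -0.089, -0.063, -0.0015, 0.029 and -0.059. These stayed within 0.1 of 0 on each array, with a fitted value of -0.037 ± 0.040 (SE, n = 6, adjusted p = 0.716). A second Adar probe spread more widely, from -0.36 on replicate 6 to 0.22 on replicate 1, with a fitted value of -0.060. Samhd1, which breaks down nucleotides, was fitted above 0.

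The remaining 10 genes encode membrane proteins such as Bst2 (tetherin, which holds budding virus at the cell surface), Ifitm3 and Ly6e, and proteins of less settled role. None changed, and 4 had an unadjusted p under 0.05, all lower, against 9.21% of all genes. The median of the 10 was -0.12, or -0.065 on the matched arrays. Trim30a, a restraint on Toll-like receptor signalling (its probe spans mm9 chr7:111560170-111560747, minus strand), had log2 ratios of -0.11, -0.086, -0.34, -0.058, -0.21 and -0.42 on replicates 1 to 6. It was below 0 on each array, with a fitted value of -0.20 ± 0.056 (SE, n = 6, adjusted p = 0.0853). Ifi27l2a had 0.0057, -0.24, -0.13, -0.25, 0.064 and -0.31, lower on the arrays with VIP in Cy3, and its fitted value was -0.14 ± 0.042 (SE, n = 6, adjusted p = 0.105). Its mean log2 intensity was 16.8 and that of Ifi27 was 16.3, both within the range of the bright genes above. The median of those bright genes was also below 0 on the arrays with VIP in Cy3. The part of this pattern in the values of Ifi27l2a and Ifi27 was not tested. Bst2 had -0.094, -0.075, -0.47, -0.20, -0.23 and 0.16. It was below 0 on 5 arrays and above it on replicate 6, with a fitted value of -0.15 ± 0.060 (SE, n = 6, adjusted p = 0.235) and the same -0.15 on the matched arrays. Ly6e had 0.026, -0.53, -0.033, -0.092, -0.14 and -0.082, with its low value on replicate 2 and not on replicate 3, and a fitted value of -0.14 ± 0.061 (SE, n = 6, adjusted p = 0.273). Ifi44, Rtp4, Ifi27, Ifi35 and Xaf1 had fitted values of -0.13, -0.12, -0.11, -0.091 and -0.015.

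**Figure D4:**
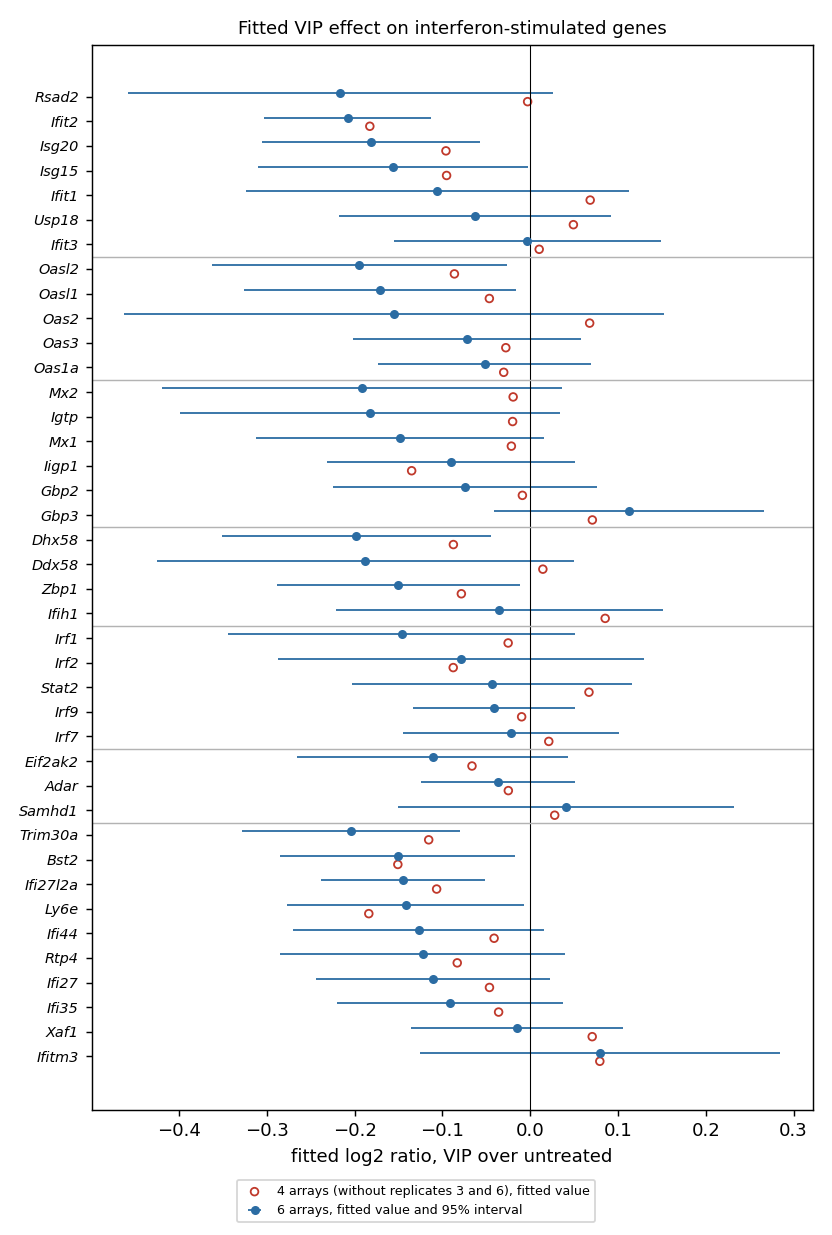
Fitted log2 ratio of VIP-treated over untreated for the 40 tested genes, by role: filled points with 95% interval bars use all 6 arrays, and open points the 4 arrays without replicates 3 and 6. The filled points lie below 0 for 37 genes and the open points for 28, and most open points lie nearer to 0.

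Below 0 on each of the 6 arrays were Ifit2, Isg20 and Trim30a, 3 of the 37 genes measured on all of them, against 3.17% of all genes. Of the 37, 20 had a mean below 0 on all 3 slides, against 19.9% of all genes. Where a gene had more than 1 kept probe, which held for 14 genes, the probes had the same sign in 12, the exceptions being Oas2 and Oas3. The fitted values of such probes differed by at most 0.16, with a median gap of 0.043. Of the 17 further probes 15 were below 0, and 2 of them passed the limit over all probes: the second Isg20 probe at -0.24 (adjusted p = 0.0400) and a second Rsad2 probe at -0.31 (adjusted p = 0.0406). Neither gene passed by the probe of highest intensity that stands for it.

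The level of these genes differed more between replicates than between VIP-treated and untreated samples. After the intensities were made comparable between arrays, the mean of both samples on replicate 4 lay below the gene's mean over the arrays for 40 of 40 genes, by a median of 1.16 on the log2 scale, against 40.0% of all genes and a median of 0.051 above. On replicate 5 it lay above for all but 2 of 40, by a median of 0.80, and the medians on replicates 1, 2, 3 and 6 were 0.085, 0.35, 0.27 and -0.26. Of the 37 genes measured on all arrays, 34 were lowest on replicate 4, against 11.3% of all genes. The effector genes differed most there, with a median of -1.95, followed by the sensors (-1.64) and the OAS family (-1.39), while the transcription factors had -0.92. Isg15 in the untreated samples was at a log2 intensity of 13.39, 13.81, 14.02, 11.37, 14.36 and 12.87 on replicates 1 to 6, and in the VIP-treated samples at 13.32, 13.80, 13.41, 11.18, 14.24 and 12.92. Both samples of an array thus moved together. Over the untreated samples the median standard deviation of a gene's level was 0.79 for interferon-stimulated genes and 0.22 for all genes.

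**Figure D5:**
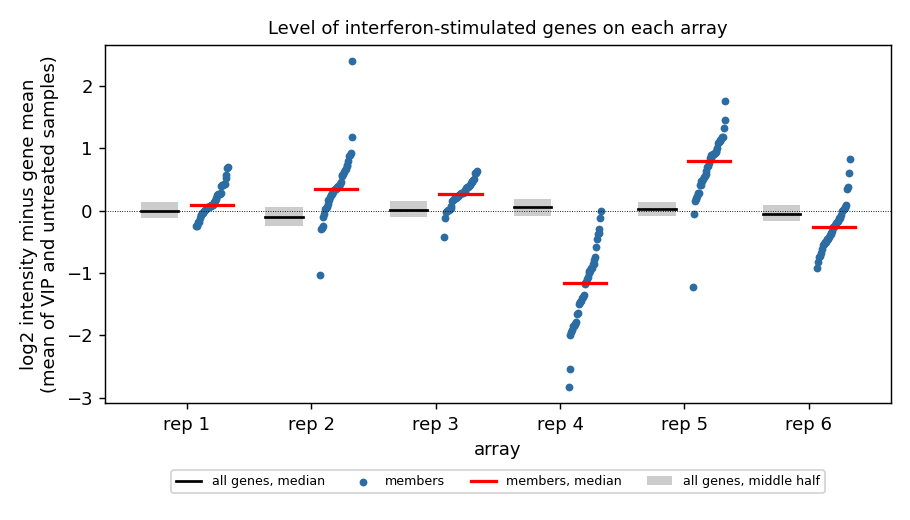
Log2 intensity of each gene on each array, averaged over the VIP-treated and untreated sample, minus the gene's mean over the arrays: blue points are interferon-stimulated genes in ascending order, red lines their medians, grey bars the middle 50% of all genes and black lines the median of all genes. The points lie lowest on replicate 4, with a median of -1.16, and highest on replicate 5, with a median of 0.80.

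Replicate 3, whose VIP-treated sample was below its untreated partner, shares its slide with replicate 4, where both samples were below the mean and the ratio of VIP over untreated was near 0. The 29 tested genes of the signalling pathway had a median deviation of -0.043 on replicate 4, with -0.46 for 3 ligands, -0.35 for 7 transcription factors and 0.016 for 4 receptors. On the same array a second list of 42 tested interferon-inducible genes outside the set had -0.77. Among the cell marker lists on that array, the median was -1.02 for 2 erythroid genes and between -0.25 and 0.31 for the other 8. The part of blood cells, animal age or sex in these levels was not tested.

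Of the pathway genes, 29 of 32 were tested and 0 changed in limma. At an unadjusted p under 0.05, 1 was lower and 2 were higher, against 9.21% and 7.5% of all genes. The pathway genes had a median log2 ratio with VIP of -0.0018, and on replicate 3 it was 0.020, in contrast to -0.41 for the interferon-stimulated genes. The lowest p-values belonged to Socs3, an inhibitor of cytokine receptors, at 0.12 ± 0.043 (SE, n = 6, adjusted p = 0.165), and to the kinase Jak2 at 0.12 ± 0.047 (SE, n = 6, adjusted p = 0.225). All 4 receptors were fitted above 0, between 0.0085 for Ifngr1 and 0.12 for Ifngr2, and none of them passed. The ligand Ifng had a fitted value of -0.057.

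The second list of interferon-inducible genes held 48, of which 42 were tested. Epsti1, a gene first described in epithelial cells in contact with stroma, fell and 0 rose, against 1.37% and 1.72% of all genes. At an unadjusted p under 0.05, 8 were lower and 1 higher, against 9.21% and 7.5% of all genes. Epsti1 had log2 ratios of -0.34, -0.26, -0.30, -0.10, -0.32 and 0.0081 on replicates 1 to 6. It was below 0 on all arrays but replicate 6, with a fitted value of -0.22 ± 0.045 (SE, n = 6, adjusted p = 0.0262), and kept the call on the 4 matched arrays at -0.26 (adjusted p = 0.0428). The list had a median of -0.035 with 29 of 42 below 0, against 52.9% of all genes. On replicate 3 its median was -0.22 with 33 of 40 below 0, against 47.1% of all genes. On the other arrays the median of the list stayed between -0.035 and 0.042. These genes were thus low on the same array as the interferon-stimulated genes, by a smaller median.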

How the data were processed

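The members and lists were chosen with earlier results of these data known. The deposited scanner tables hold spot intensity from Agilent Feature Extraction 9.5.1.1, per the file headers, with probes placed on mm9. The authors also deposited a value table whose values are the scanner's log10 ratio of both dyes, turned so that positive means higher with VIP. Per the labels, 250 ng of total RNA was labelled. VIP was in Cy5 on replicates 1, 3 and 5 and in Cy3 on the others.

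Mean signals were corrected with normexp (offset 50) and normalised within arrays by loess in limma 3.58.1 (R 4.3.3), leaving out control and outlier spots (1.93% to 8.96% per array). Probes well above background on at least 3 arrays in either sample and with values on 2 or more arrays per dye orientation were kept, and the brightest stood for its gene. Names were updated by RefSeq accession for 24844 of 41174 probes (60.3%). The model fitted a VIP effect and, for each probe, a dye effect to the log2 ratios, so samples are paired by array, as the design has it. P-values were 2-sided and adjusted over all 19225 genes. Errors are standard errors. Ratios on single arrays still hold the dye effect. Levels per sample were additionally quantile-normalised between arrays on mean intensity, and can hold dye bias. Levels of different probes were not compared. The script was tested on simulated data.

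Values on every array are given for called genes, the 12 genes of lowest p, and in each role group the 2 of lowest p and the brightest. In the other lists the called genes or, where none was called, the 2 of lowest p are named. Other genes were picked on seeing their values, and the comparison of levels between replicates was added then too. Median signal ran from 83.6 to 108 in Cy3 and from 148 to 235 in Cy5. Exon annotation of mm9 was not used here.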

Additional observations from a re-analysis of the deposited data

Results flagged for a closer look

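In 5 of 38 sets of 6 arrays examined, 1 array lay apart from the other 5 by more than a Dixon test at the 95% level allows. Chance gives about 1 in 20 for a single set. The sets come from the same arrays and are not independent, so their count cannot be judged against that rate. The median log2 ratio of the interferon-stimulated genes was -0.41 on replicate 3. On the same array Zbp1 was at -0.54 and Isg15 at -0.61, and both genes are part of that median. The brightest Irf1 probe was at -0.80 on replicate 6, where a second Irf1 probe was at -0.23. Ly6e was at -0.53 on replicate 2. The 5 flagged sets are not a full list of genes with 1 array apart. Mx2 and Oas2, not among them, were at -0.90 and -1.22 on replicate 3. Their next lowest values were -0.18 and -0.21. After removal of the fitted dye effect none of the 38 sets had an array that lay apart by this test.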

How the results depend on the processing

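The count of genes lower with VIP was 1 as reported and 0 with the scanner software's processed signals, median centring in place of loess, outlier spots kept, the mean of a gene's probes, no dye term, the authors' value table, no replicate block (the 12 channels as unpaired samples), or the 4 matched arrays. Leaving out single arrays gave a range of 0 to 0. It stayed at 1 without a filter on dim probes, with the strictest filter, with all kept probes tested, with slide as a block and with the names in the files. The count of genes higher was 0 throughout. The median log2 ratio ran from -0.16 without replicate 1 to -0.038 without replicate 3, and was -0.065 with median centring and -0.026 on the 4 matched arrays. For the 18 genes chosen by the naming rule (which leaves out Rsad2 and Irf2), 321 of 342 values kept direction and call. Only Ifit2 was called as reported, so for the others keeping the call meant staying uncalled. The 14 lost calls were all of Ifit2, out of 19 settings. Its adjusted p in the paired fits ran from 0.0226 without a filter on dim probes to 0.296 without a dye term. The 7 turned signs were all of Ifit3, at 0.038 with median centring, 0.0015 without a dye term, 0.063 with slide as a block, 0.010 on the 4 matched arrays, and 0.021, 0.049 and 0.010 without replicates 1, 2 and 6, where leaving out single arrays gave values from -0.069 to 0.049. The cause was not tested. Signal over background limits Oas1g, which could not be tested.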
